A study of Sus scrofa with 12 samples.

Results

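The genes described here are 34 pig genes of glycolysis, glucose uptake and the response to low oxygen, chosen by symbol: 4 transporters of glucose and lactate, 11 genes of upper glycolysis and its control, 8 of lower glycolysis and lactate formation, 3 pyruvate dehydrogenase kinases, 3 genes of oxygen sensing and 5 further hypoxia targets. Of the 34, 29 were matched by gene identifier to a row of the count table, which holds 21153 genes, and 28 passed the filter on low counts that left 12444 genes for testing. The glucose transporters SLC2A1 and SLC2A3, the lactate transporter SLC16A1, the lactate dehydrogenase subunit LDHB and the mitophagy receptor BNIP3 were not analysed here. PDK4, a pyruvate dehydrogenase kinase, had 0 to 5 counts in a library and was not tested. The glycolytic enzyme TPI1, with 12 to 50 counts in a library, and ANKRD37, an ankyrin repeat gene induced by hypoxia, with 6 to 23 counts, were tested on few reads.

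RNA sequencing covered primary cultures of smooth muscle cells from porcine (Sus scrofa) coronary artery, labelled as differentiated or contractile in phenotype. Cells of passages 6 to 11 grew at 60 cells per mm2 in 35 mm dishes in Dulbecco's medium with 10% fetal calf serum, a condition that all groups shared, and treatment began after 24 h. For 4 h the cells received 30 ng/ml PDGF-BB, 1 µg/ml S100A4, which the design text writes as oS100A4, or both proteins, or were kept as controls, with 3 libraries in each of the 4 groups. The cells came from 3 animals, and no label ties a replicate number to an animal, so any p-value here rests on the spread of these libraries alone.

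Glycolysis splits glucose into pyruvate, which enters the mitochondria through pyruvate dehydrogenase or is turned into lactate and exported. Under low oxygen the factor HIF-1, of which HIF1A is the regulated subunit, raises the transcription of many of these genes; when oxygen is present, the prolyl hydroxylases EGLN1 and EGLN3 mark HIF1A protein for degradation. PDGF-BB is a growth factor that acts on smooth muscle cells through receptor tyrosine kinases, and S100A4 is a calcium-binding protein that can also act outside the cell.

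The libraries held 21455021 to 32448438 counts, so that a level of 1 CPM, the count scaled to the size of its library, stood for 21.5 counts in the shallowest. Each comparison was fitted with edgeR's quasi-likelihood test on the group means, and again with the replicate number as a block, since libraries of the same number deviated together in all 4 groups; calls are at an adjusted p under 0.05 over all 12444 genes. Summed over 9 smooth muscle markers, the level was 8018 to 9405 CPM in the replicate 2 libraries and 17935 to 22656 CPM in the others. The 6 endothelial markers with a row summed to 55.3 to 139.6 CPM in the controls, 121 to 220.2 with PDGF-BB, 59.6 to 150.2 with S100A4 and 133 to 208 with both. Of the 5 tested, ERG was the 1 called with PDGF-BB on group means, at 1.23 ± 0.30 on the log2 scale (adjusted p = 0.022), and the block also called TIE1, at 0.45 ± 0.15 (adjusted p = 0.02), while KDR was at 0 to 0.189 CPM in all libraries; the part of these cells in the results below was not tested. The other marker sums were 1021 to 1703 CPM for 8 fibroblast genes, 312 to 1917 CPM for 5 pericyte genes, 7.25 to 11.5 CPM for 6 macrophage genes with PTPRC at 0 throughout, and at most 0.189 CPM for the 3 epithelial or mesothelial genes with a row. In bulk RNA, fewer cells of a type and less RNA per cell cannot be told apart.

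PDGF-BB raised the hexokinase HK2 and the prolyl hydroxylase EGLN3. Of the 2 edgeR fits, the blocked one alone called the lactate exporter SLC16A3 higher and the pyruvate dehydrogenase kinases PDK1 and PDK3 lower. Some other settings without the block also made these calls. DESeq2 called PDK1 and PDK3 (adjusted p = 0.024 and 0.028), and the fit without replicate 2 called SLC16A3 (adjusted p = 0.0067). Of 7 tested genes of lower glycolysis the block called 4 higher with PDGF-BB (GAPDH, PGAM1, ENO1 and LDHA, of which ENO1 was lost under 2 other scalings), 1 lower (ENO2) and 2 not at all (PGK1 and PKM). With PDGF-BB alone, 2 of the 28 tested members rose and 0 fell against control in the fit on group means, where 14.7% of all tested genes were called (9.09% higher and 5.62% lower). With the block, 9 rose and 8 fell, beside 48.8% of all genes called (24.3% higher and 24.5% lower). S100A4 alone called 0 members (0.563% of all genes; 0.554% higher and 0.00804% lower), with 1 member at an unadjusted p under 0.05 and 0 by DESeq2; the block called 0 higher and 3 lower (10.7% of all genes; 6.46% higher and 4.28% lower). With both proteins against control, 2 members rose and 3 fell (22.0% of all genes; 13.2% higher and 8.75% lower), and with the block 13 rose and 7 fell (56.1%; 27.5% higher and 28.6% lower). As shares of the 28, the blocked calls were 60.7% with PDGF-BB, 10.7% with S100A4 and 71.4% with both proteins.

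The direction of the smaller changes was mixed, and the group as a whole moved little. The median log2 change of the 28 members was 0.04 for PDGF-BB against control, beside -0.02 over all tested genes. For S100A4 it was -0.05, beside -0.02. For both proteins it was 0.07, beside -0.03, and within the pairs of replicates 1, 2 and 3 it was 0.11, 0.05 and 0.08. The same-numbered pairs gave a simple count of direction. With PDGF-BB, 12 members were higher in all 3 pairs and 11 lower, beside 33.6% and 35.8% of all tested genes. With S100A4, 5 were higher and 17 lower in all 3 pairs, beside 21.5% and 26.3%, and with both proteins 15 and 8, beside 33.7% and 36.5%. Upper-quartile scaling moved the median of the members to -0.01 for PDGF-BB and to -0.00 for both proteins against control, and it turned the share of calls that were higher among all genes from 61.8% to 49.0% for PDGF-BB and from 60.1% to 46.1% for both proteins.

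**Figure D1:**
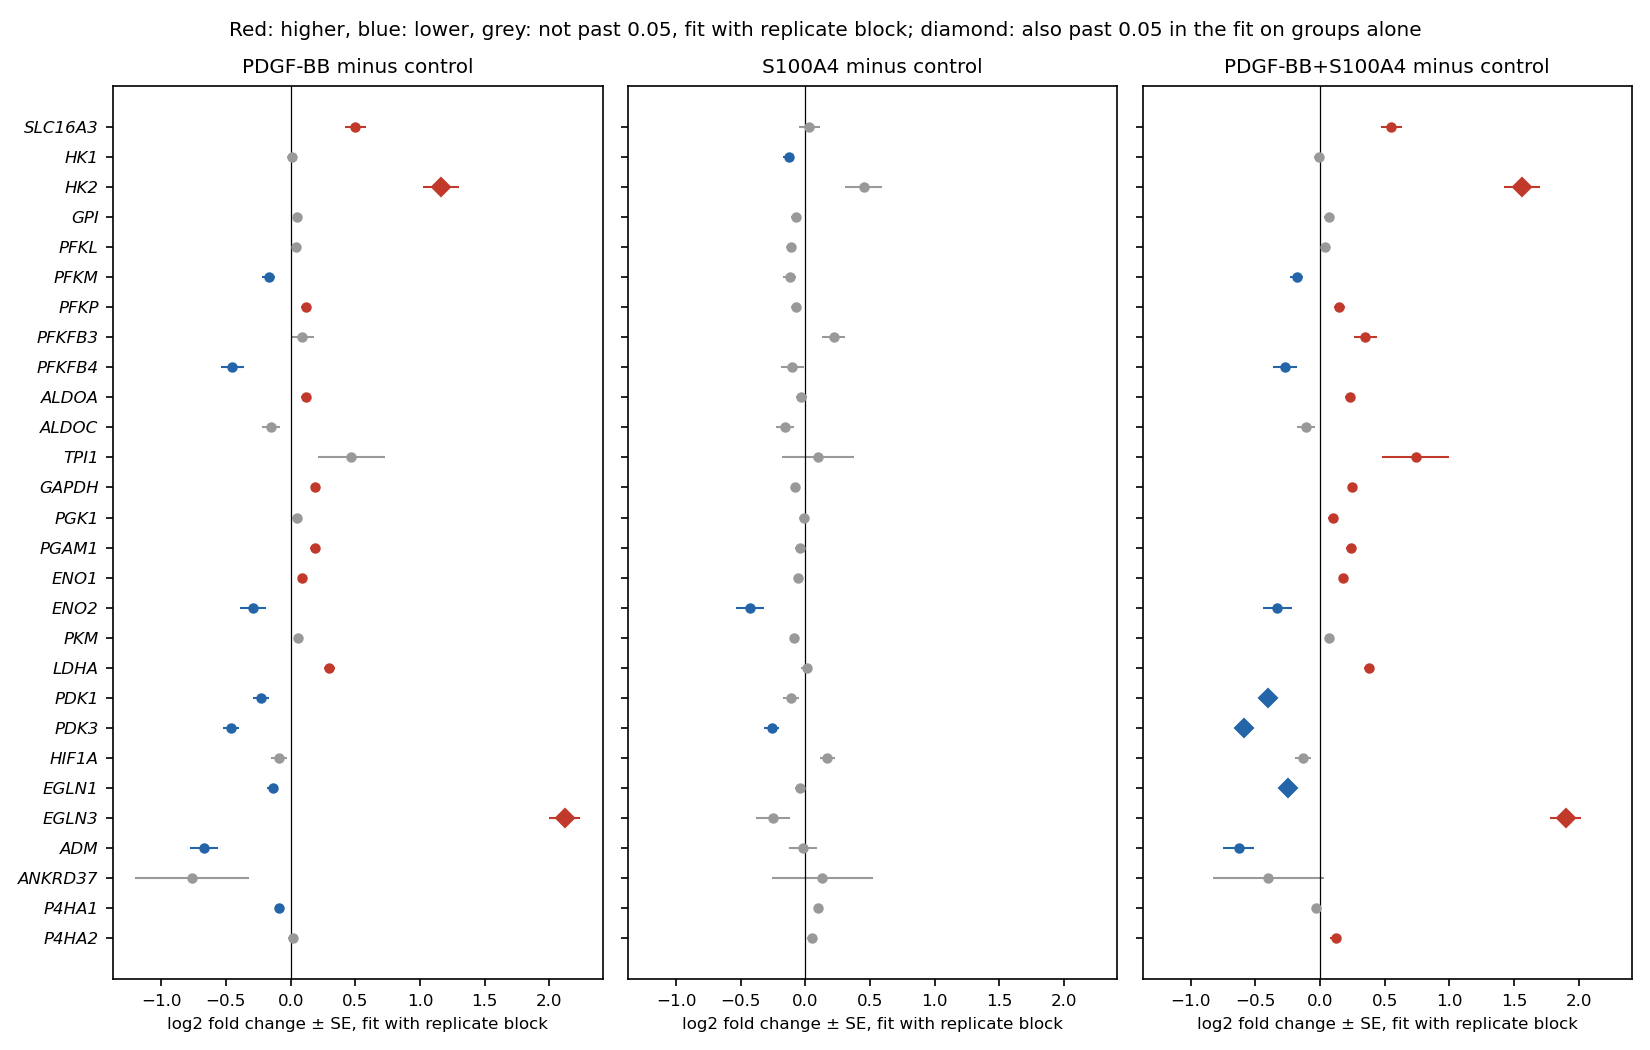
Log2 change of each of the 28 tested members (rows) with PDGF-BB, S100A4 or both against control, in the fit with the replicate block; points are estimates, lines 1 standard error, red and blue mark calls higher and lower, and diamonds those also called on group means alone. EGLN3 and HK2 stand far to the right with PDGF-BB and with both proteins, while most members lie within 0.5 of zero.

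Lactate export was represented by SLC16A3 (MCT4), the monocarboxylate transporter that carries lactate out of glycolytic cells. Its level in replicates 1, 2 and 3 was 42.5, 69.3 and 50.5 CPM in the controls, 70.5, 84.2 and 71.7 CPM with PDGF-BB, 45.6, 69.6 and 50.4 CPM with S100A4 and 75.5, 88.1 and 70.9 CPM with both proteins. The PDGF-BB libraries and those with both proteins all lay above every control and S100A4 library. The log2 change with PDGF-BB was 0.48 ± 0.20 (SE), with an adjusted p of 0.15 on group means and 0.00012 with the block. With both proteins it was 0.53 ± 0.20 (adjusted p = 0.088, and 4e-05 with the block), and with S100A4 alone 0.03 ± 0.20 (adjusted p = 1, and 0.86 with the block). In the fit on group means without the replicate 2 libraries, the change with PDGF-BB was 0.63 with an adjusted p of 0.0067. SLC16A3 lies on chromosome 12, from 796882 to 807480 in RefSeq's Sscrofa11.1 annotation.

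In upper glycolysis HK2, the inducible hexokinase that traps glucose in the cell as glucose 6-phosphate, changed most. The levels in replicates 1, 2 and 3 were 46.7, 69.2 and 49.6 CPM in the controls, 134, 109 and 121 CPM with PDGF-BB, 63.1, 102 and 62.4 CPM with S100A4 and 169.6, 165 and 150.2 CPM with both proteins. All libraries with PDGF-BB were above all without it, and those with both proteins lay above those with PDGF-BB alone. HK2 was 2.20-fold higher with PDGF-BB than in the controls, a log2 change of 1.14 ± 0.20 (adjusted p = 0.0049), and 2.93-fold higher with both proteins, at 1.55 ± 0.21 (adjusted p = 0.00061). S100A4 left it at 0.46 ± 0.20 over control, higher in all 3 same-numbered pairs but not called (adjusted p = 0.81, and 0.066 with the block). Adding S100A4 to PDGF-BB gave 0.41 ± 0.20, again higher in all 3 pairs and not called (adjusted p = 1, and 0.096 with the block). Without the replicate 1 libraries, the changes with PDGF-BB and with both proteins were 0.96 and 1.41, with adjusted p of 0.17 and 0.054; without replicate 3 the first was 1.07 (adjusted p = 0.11). HK2 spans 68155656 to 68231187 on chromosome 3.

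HK1, the hexokinase present in most tissues, did not follow HK2. Its mean was 495 ± 53.3 CPM (SD, n = 3) in the controls, 496 ± 32.4 with PDGF-BB, 453 ± 36.5 with S100A4 and 490.1 ± 28.7 with both proteins. The S100A4 difference, -0.13 ± 0.10, was called lower with the block alone (adjusted p = 0.039).

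The next committed step is phosphofructokinase, whose 3 subunit genes differed. PFKP, the platelet-type subunit, was at 140.3, 134 and 141 CPM in the controls, 154, 144 and 153 CPM with PDGF-BB, 128, 127 and 139.8 CPM with S100A4 and 162, 143 and 157 CPM with both proteins. Its lowest library with both proteins lay above the highest with S100A4 alone. In that comparison PFKP rose by 0.23 ± 0.07 (adjusted p = 0.045), a call that was lost in 11 of 21 other settings, upper-quartile scaling and the removal of any 1 of several libraries among them (log2 change 0.16 to 0.28). Against control the blocked fit called it at 0.12 ± 0.04 with PDGF-BB and 0.15 ± 0.04 with both proteins (adjusted p = 0.031 and 0.0058), and upper-quartile scaling ended both calls (adjusted p = 0.19 and 0.1). PFKM, the muscle-type subunit, had means of 51.0 ± 2.49 CPM in the controls, 45.3 ± 2.91 with PDGF-BB, 46.9 ± 3.29 with S100A4 and 44.9 ± 2.90 with both. PFKM fell with the block, by 0.17 with PDGF-BB (adjusted p = 0.0091) and by 0.18 with both proteins (adjusted p = 0.0048), but was not called on group means (adjusted p = 0.2 and 0.13). Upper-quartile scaling on group means called it with both proteins (adjusted p = 0.044). PFKL, the liver-type subunit, changed with neither fit against control, at 0.04 ± 0.28 with PDGF-BB and 0.03 ± 0.28 with both.

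PFKFB4 and PFKFB3 are among the regulatory enzymes that set the level of fructose 2,6-bisphosphate, the activator of phosphofructokinase. Their genes differed in direction. PFKFB4 was at 10.1, 10.5 and 13.6 CPM in the controls, 6.44, 7.56 and 11.1 CPM with PDGF-BB, 9.70, 9.50 and 12.9 CPM with S100A4 and 8.09, 9.13 and 11.0 CPM with both proteins. Groups overlapped through the high replicate 3, and every pair was lower with PDGF-BB. The change was -0.44 ± 0.22 (adjusted p = 0.24, and 0.00071 with the block). The mean of PFKFB3 was 39.0 ± 7.13 CPM in the controls, 41.3 ± 4.07 with PDGF-BB, 45.7 ± 12.1 with S100A4 and 49.1 ± 0.989 with both. Against control the block called it with both proteins, at 0.35 ± 0.09 (adjusted p = 0.0057, and 0.23 on group means). Without the replicate 2 libraries the fit on group means called it too (0.47, adjusted p = 0.012).

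Of the other enzymes of the upper pathway, ALDOA, the main aldolase of muscle, was at 681, 833 and 726 CPM in the controls, 806, 858 and 770.4 CPM with PDGF-BB, 673, 805 and 721 CPM with S100A4 and 847, 931 and 836 CPM with both proteins. Each library with both proteins exceeded all control libraries. The change with both proteins was 0.22 ± 0.10 (adjusted p = 0.14, and 0.00031 with the block), and with PDGF-BB 0.12 ± 0.10 (adjusted p = 0.51, and 0.022 with the block, a call lost under upper-quartile scaling). GPI, which interconverts the hexose phosphates, and ALDOC, a second aldolase, were not called against control in either fit, with changes between -0.15 and 0.07. TPI1, which interconverts the triose phosphates, was called higher with both proteins and the block (0.74 ± 0.26, adjusted p = 0.026), with pair differences of 0.01, 0.96 and 1.18 on its 12 to 50 counts.

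**Figure D2:**
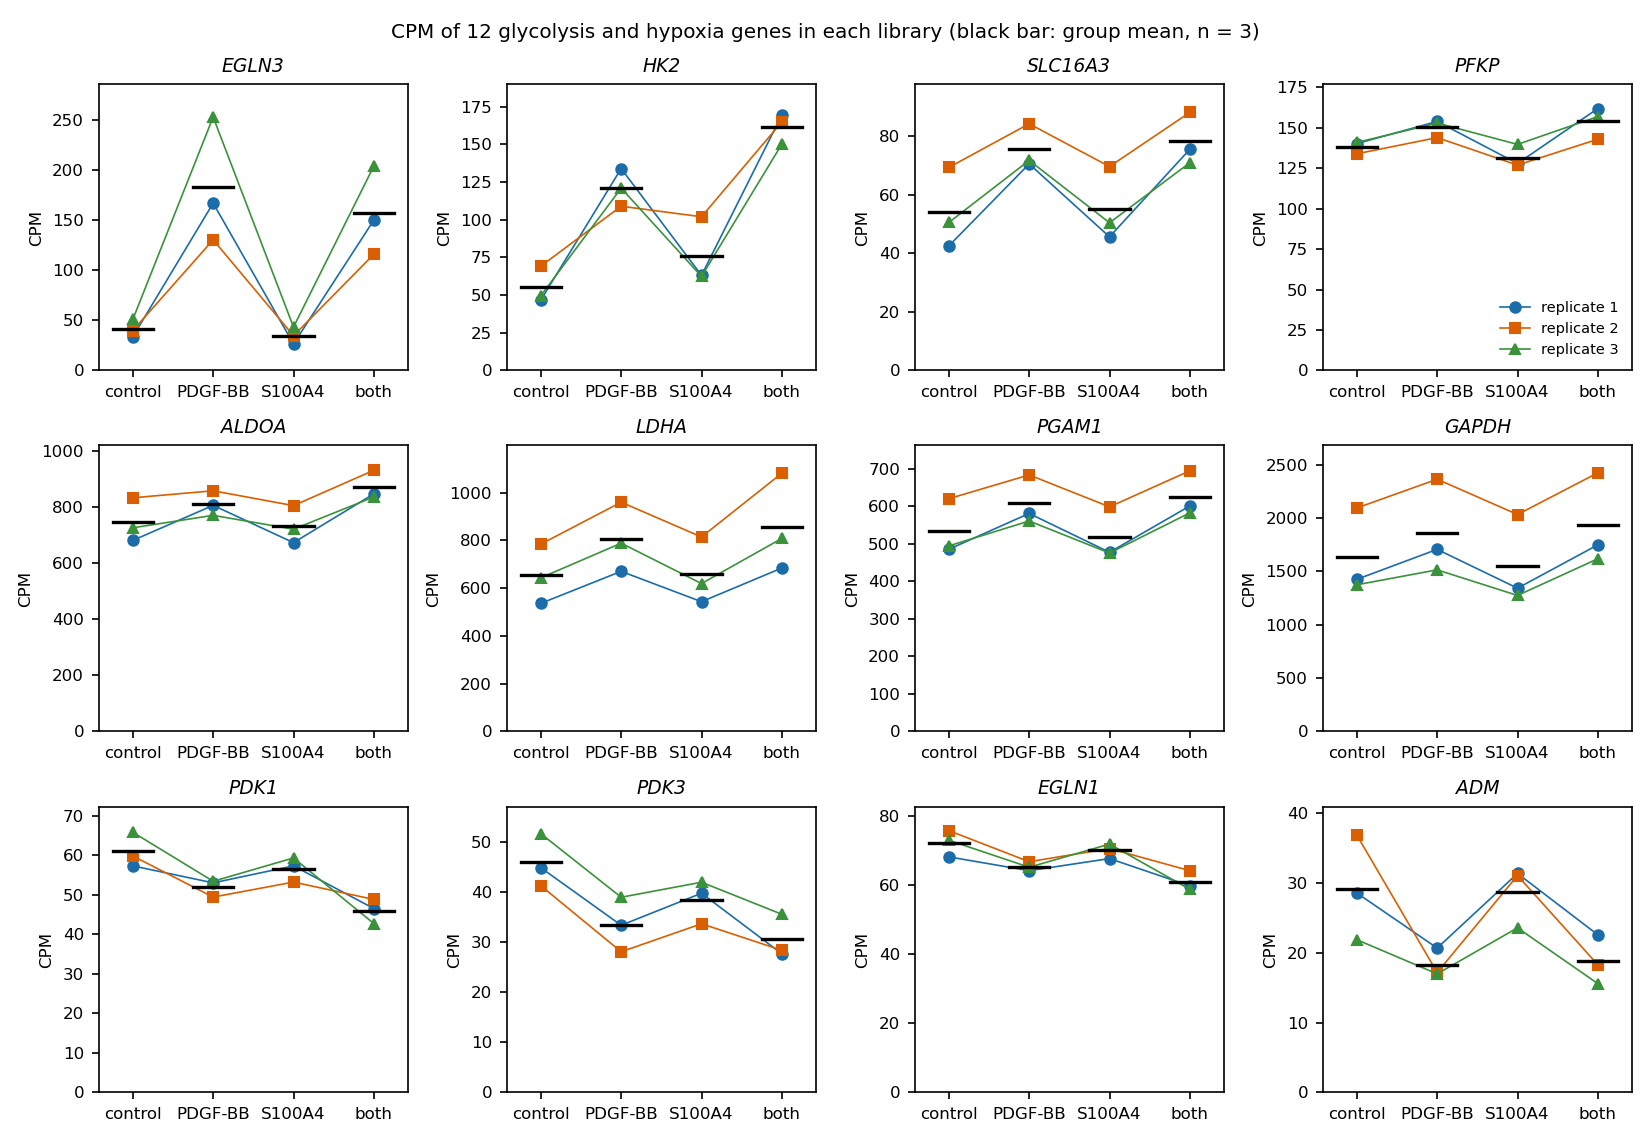
CPM (scaled with TMM factors) of 12 members in each of the 12 libraries; lines join libraries of the same replicate number across the 4 groups and black bars are group means of 3. EGLN3, HK2 and SLC16A3 are high in both groups with PDGF-BB, and PDK1, PDK3, EGLN1 and ADM are lower there, while replicate 2 is the highest in every group for LDHA, PGAM1 and GAPDH.

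In lower glycolysis no gene was called against control on group means with all 12 libraries. In all 3 pairs, 5 of its 7 tested genes were higher and 1 lower with PDGF-BB, 6 higher and 1 lower with both proteins, and 0 higher and 5 lower with S100A4. The shares of all tested genes were 33.6% and 35.8% with PDGF-BB, 33.7% and 36.5% with both proteins, and 21.5% and 26.3% with S100A4. These counts of 7 genes were not tested against the shares. LDHA, the lactate dehydrogenase subunit that favours lactate formation, was at 536, 784 and 643 CPM in the controls, 670.1, 959.6 and 788 CPM with PDGF-BB, 543, 814 and 619 CPM with S100A4 and 684, 1081 and 808 CPM with both proteins. The groups overlapped, since replicate 2 was high throughout, but each PDGF-BB library was above the control of its number. Within the pairs LDHA was higher by 0.32, 0.29 and 0.29 with PDGF-BB and by 0.35, 0.46 and 0.33 with both proteins. The adjusted p was 0.46 and 0.26 on group means and 1.2e-05 and 9.2e-07 with the block.

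GAPDH, the dehydrogenase that makes glycolytic NADH and is often used as a reference gene, was at 1426, 2095 and 1375 CPM in the controls, 1707, 2365 and 1515 CPM with PDGF-BB, 1343, 2034 and 1275 CPM with S100A4 and 1749.6, 2425 and 1619 CPM with both proteins. The level was above the control of the same number in all 6 libraries with PDGF-BB. The changes were 0.19 ± 0.03 with PDGF-BB and 0.25 ± 0.03 with both proteins in the blocked fit (adjusted p = 4e-04 and 3.3e-05; 0.74 and 0.58 on group means). PGAM1, the phosphoglycerate mutase outside muscle, was at 485, 619.7 and 494 CPM in the controls, 580.4, 683 and 560.3 CPM with PDGF-BB, 477, 598 and 475 CPM with S100A4 and 600.4, 694 and 582 CPM with both proteins. It was called with the block at 0.19 ± 0.04 with PDGF-BB (adjusted p = 0.00046) and 0.24 ± 0.04 with both (adjusted p = 6.3e-05).

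ENO1, the widely expressed enolase, was at 1631, 2522 and 1659.8 CPM in the controls, 1782, 2576 and 1807 CPM with PDGF-BB, 1557, 2408 and 1594 CPM with S100A4 and 1883, 2707 and 1939.7 CPM with both proteins. Replicate 2 stood above the others in every group. With both proteins ENO1 was called with the block at 0.18 ± 0.03 (adjusted p = 0.00046); with PDGF-BB alone the blocked call, 0.09 ± 0.03 (adjusted p = 0.033), was lost under 2 other scalings, RLE (adjusted p = 0.06) and upper-quartile (adjusted p = 0.28). ENO2, the neuronal enolase, went the other way in the blocked fit, by -0.29 ± 0.10 with PDGF-BB, -0.43 ± 0.11 with S100A4 and -0.33 ± 0.11 with both (adjusted p = 0.03, 0.018 and 0.016), from a control mean of 9.69 ± 1.18 CPM. PKM, the pyruvate kinase of most tissues outside the liver, was at 2650.3, 3036 and 2706 CPM in the controls, 2849, 3088 and 2779 CPM with PDGF-BB, 2504, 2843 and 2560.1 CPM with S100A4 and 2858, 3073 and 2874 CPM with both proteins. The libraries with both proteins lay above those with S100A4 alone, and against control PKM was not called in either fit. PGK1, an ATP-forming kinase, was called with both proteins and the block at 0.10 ± 0.04 (adjusted p = 0.031), a call absent under RLE and upper-quartile scaling.

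Both tested pyruvate dehydrogenase kinases, which restrain the entry of pyruvate into oxidation, fell with both proteins. PDK1, a HIF-1 target, was at 57.3, 59.8 and 65.8 CPM in the controls, 53.0, 49.4 and 53.4 CPM with PDGF-BB, 57.3, 53.2 and 59.3 CPM with S100A4 and 46.5, 48.8 and 42.7 CPM with both proteins. Both groups with PDGF-BB lay below all controls, and the libraries with both proteins lay lowest. PDK1 was 1.33-fold lower with both proteins than in the controls, at -0.41 ± 0.08 (adjusted p = 0.0043). PDGF-BB alone gave -0.23 ± 0.08 (adjusted p = 0.074, and 0.0084 with the block). S100A4 alone gave -0.11 ± 0.08 (adjusted p = 1, and 0.36 with the block).

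PDK3 was at 44.9, 41.3 and 51.7 CPM in the controls, 33.4, 28.1 and 39.0 CPM with PDGF-BB, 39.8, 33.7 and 42.0 CPM with S100A4 and 27.7, 28.4 and 35.6 CPM with both proteins. Its libraries with PDGF-BB or both proteins all fell short of the lowest control. PDK3 fell from a mean of 45.9 ± 5.28 CPM in the controls to 30.6 ± 4.37 CPM with both proteins, at -0.59 ± 0.15 (adjusted p = 0.018), and stood at -0.46 ± 0.15 with PDGF-BB (adjusted p = 0.069, and 2.3e-05 with the block). With S100A4 it was -0.25 ± 0.15, a blocked call only (adjusted p = 0.013 with the block). The calls with both proteins were lost without replicate 1 for both kinases (PDK1 -0.46, adjusted p = 0.09; PDK3 -0.53, adjusted p = 0.28), for PDK1 without replicate 3 (-0.30, adjusted p = 0.081), and for PDK3 without control replicate 3 (adjusted p = 0.07), or without replicate 1 or 2 of the group with both proteins (adjusted p = 0.072 and 0.062). PDK1 lies on chromosome 15 from 78608394 to 78650958, where 2 other RefSeq genes overlap it, and PDK3 on the X chromosome from 20486205 to 20598492.

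Among the oxygen sensing genes the prolyl hydroxylases parted. EGLN3, which is itself induced by HIF, was at 33.6, 39.8 and 50.9 CPM in the controls, 167, 130.4 and 253 CPM with PDGF-BB, 26.4, 34.6 and 43.3 CPM with S100A4 and 150.1, 116 and 204 CPM with both proteins. Every library with PDGF-BB lay above every library without it, and replicate 3 was highest in each group. EGLN3 was 4.44-fold higher with PDGF-BB, at 2.15 ± 0.30 (adjusted p = 0.0014), and 3.78-fold higher with both proteins, at 1.92 ± 0.30 (adjusted p = 0.0015), the largest changes among the 28 members. S100A4 alone gave -0.25 ± 0.29 and S100A4 on top of PDGF-BB -0.23 ± 0.29, lower in all 3 pairs each time and called in neither fit (adjusted p = 1 and 1; 0.26 and 0.3 with the block). Without the replicate 1 libraries the changes with PDGF-BB and with both were 2.09 and 1.83, with adjusted p of 0.093 and 0.078. EGLN3 lies on chromosome 7 from 65805513 to 65833536.

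EGLN1, the main hydroxylase in the presence of oxygen, was at 68.2, 75.8 and 73.0 CPM in the controls, 64.2, 66.8 and 65.2 CPM with PDGF-BB, 67.7, 70.6 and 71.9 CPM with S100A4 and 59.8, 64.2 and 58.8 CPM with both proteins. Both groups with PDGF-BB lay below the lowest control. EGLN1 fell by 0.25 ± 0.06 with both proteins (adjusted p = 0.016), a call lost in 7 of 21 other settings, among them the fits without control replicate 2 or 3 (adjusted p = 0.052 each), without replicate 1 or 3 of the group with both proteins (adjusted p = 0.059 and 0.064), without all replicate 1 libraries (0.14) and without all replicate 3 libraries (0.2). With PDGF-BB alone the change was -0.15 ± 0.06 (adjusted p = 0.15, and 0.013 with the block).

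HIF1A, the regulated subunit, was at 488, 558 and 533 CPM in the controls, 468, 531 and 488 CPM with PDGF-BB, 542, 692 and 552 CPM with S100A4 and 410.4, 597 and 445 CPM with both proteins. The groups overlapped, and no change against control was called in either fit with all libraries and TMM scaling. With both proteins, the fit on group means without the replicate 2 libraries called HIF1A lower (-0.25, adjusted p = 0.04). The block with upper-quartile scaling also called it lower with both proteins (-0.21, adjusted p = 0.011). Both proteins against S100A4 gave -0.30 ± 0.15, lower in all 3 pairs (adjusted p = 0.22, and 0.00098 with the block).

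Of the further hypoxia targets, ADM, the gene of the vasodilator peptide adrenomedullin, was at 28.6, 36.9 and 21.9 CPM in the controls, 20.7, 17.2 and 17.0 CPM with PDGF-BB, 31.4, 31.1 and 23.6 CPM with S100A4 and 22.6, 18.3 and 15.6 CPM with both proteins. With PDGF-BB all libraries were below all controls, and with both proteins replicate 1 overlapped the lowest control. The changes, -0.67 ± 0.20 with PDGF-BB and -0.63 ± 0.20 with both proteins, missed the threshold on group means (adjusted p = 0.053 and 0.051) and passed it with the block (0.00026 and 0.00035). Without the block, both also passed with DESeq2 (0.013 and 0.016), RLE scaling (0.048 and 0.045) and upper-quartile scaling (0.039 and 0.033). EGLN3 and ADM, both known hypoxia targets, thus stood on opposite sides of control. P4HA1 and P4HA2, the collagen prolyl 4-hydroxylase subunits, moved by at most 0.12 against control; in the blocked fit P4HA1 was called lower with PDGF-BB (-0.09 ± 0.03, adjusted p = 0.034) and P4HA2 higher with both proteins (0.12 ± 0.04, adjusted p = 0.025), the latter lost under RLE and upper-quartile scaling. ANKRD37 was called in neither fit, at -0.80 ± 0.47 with PDGF-BB on its 6 to 23 counts.

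The combination was also set against each protein alone. Against S100A4, 3 members rose and 1 fell (15.0% of all genes called; 9.45% higher and 5.51% lower). EGLN3 was 4.50-fold higher (2.17 ± 0.30, adjusted p = 0.0014), HK2 2.14-fold higher (1.09 ± 0.20, adjusted p = 0.0061) and PDK1 1.23-fold lower (-0.30 ± 0.08, adjusted p = 0.026), beside PFKP above. EGLN1 stood at -0.20 ± 0.06 with an adjusted p of 0.0504. Without the replicate 1 libraries, the adjusted p was 0.11 for EGLN3, 0.21 for HK2 and 0.29 for PDK1; HK2 was also lost without replicate 3 (0.13), and PDK1 in 7 of 21 settings, among them the fits without 1 of 4 single libraries, replicates 1 and 3 of each group (0.068 to 0.1). With the block 14 members rose and 6 fell, beside 47.8% of all genes (24.9% higher and 22.9% lower), and 16 were higher and 8 lower in all 3 pairs, beside 33.6% and 33.9%. All 7 tested genes of lower glycolysis were higher than with S100A4 alone in all 3 pairs, and 6 of them were called, LDHA (0.38 ± 0.04, adjusted p = 1.8e-06), GAPDH (0.33 ± 0.03, adjusted p = 3.8e-06), PGAM1, ENO1, PKM and PGK1; ENO2 was not. Of upper glycolysis, the block called HK1, HK2, GPI, PFKL, PFKP and ALDOA higher. Upper-quartile scaling with the block ended the calls of HK1 and PFKL, and that of PGK1 in lower glycolysis.

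Against PDGF-BB, 0 members were called on group means (0.273% of all genes) or with the block (7.14% of all genes; 5.11% higher and 2.03% lower), with 1 and 8 members at an unadjusted p under 0.05 and 0 members called by DESeq2. On group means that member was PDK1, at -0.17 ± 0.08. In all 3 pairs 10 members were higher and 3 lower, beside 22.8% and 18.9% of all genes. When the replicate 2 libraries were left out of the blocked fit, 5 members passed, beside 1306 of all genes (888 with all libraries). HK2 (0.32, adjusted p = 0.001) and PFKFB3 (0.30, adjusted p = 0.0053) rose. PDK1 (-0.27, adjusted p = 0.016), EGLN3 (-0.25, adjusted p = 0.0052) and HIF1A (-0.17, adjusted p = 0.011) fell. In the same fit S100A4 against control called 1055 of all genes. Among the members it called HK2 higher (0.39, adjusted p = 0.00055) and PDK3 and EGLN3 lower (-0.23 and -0.27, adjusted p = 0.048 and 0.018).

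Whether the S100A4 effect differed in the presence of PDGF-BB was tested as an interaction. It called 0 members on group means (0% of all genes) and 0 with the block (0.113% of all genes), with 0 and 7 members at an unadjusted p under 0.05 and 0 called by DESeq2. Its median over the members was 0.09, beside 0.01 over all genes, and 0.08, 0.10 and 0.10 in the 3 same-numbered sets of libraries. Taken with its sign, the S100A4 difference lay higher with PDGF-BB than without it in all 3 sets for 15 of the 28 members and lower in all 3 for 1, HIF1A, beside 20.3% and 16.3% of all genes. A higher value was not always a larger one: in the blocked fit the S100A4 difference was -0.43 without and -0.04 with PDGF-BB for ENO2, and -0.13 and -0.02 for HK1. HIF1A had an interaction of -0.21 ± 0.21 (adjusted p = 1, and 0.48 with the block), and without replicate 2 the blocked fit gave -0.28 with an adjusted p of 0.028.

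Levels also differed with the replicate number. Replicate 2 had the highest mean over the 4 groups for 18 of the 28 members, among them 8 of 11 genes of upper and 6 of 7 of lower glycolysis. The same count was not made over all tested genes, so it cannot be read as particular to these members. Its excess over the other replicates was 0.68 on the log2 scale for ALDOC, 0.64 for PFKL, 0.57 for GAPDH, 0.56 for ENO1, 0.46 for LDHA and 0.45 for GPI. ENO2 was lower there, at -0.53, and PDK3 at -0.25. EGLN3 was highest in replicate 3, by 0.60. Replicate 2 was also the number with the low smooth muscle marker sum and, at 139.6 to 220.2 CPM, with a higher endothelial sum than the other replicates under the same treatment. Its pericyte sum was low, at 312 to 420.3 CPM against 1129 to 1917 CPM in the others. RGS5 of that list went the other way, at 6.15 to 7.40 CPM in replicate 2 and 0.267 to 2.02 CPM in the others. Its fibroblast sum, 1473 to 1703 CPM, was the highest under each treatment, where the others had 1021 to 1493 CPM. PDGFRA, a PDGF receptor counted in the fibroblast list, was at 113 to 164 CPM in replicate 2 and 8.30 to 43.9 CPM in the others. COL14A1 of the same list was lowest in replicate 2, at 531 to 645 CPM against 737 to 1048 CPM in the others. TCF21 was also lowest there except with S100A4. The part of these cell types in the levels was not tested.

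**Figure D3:**
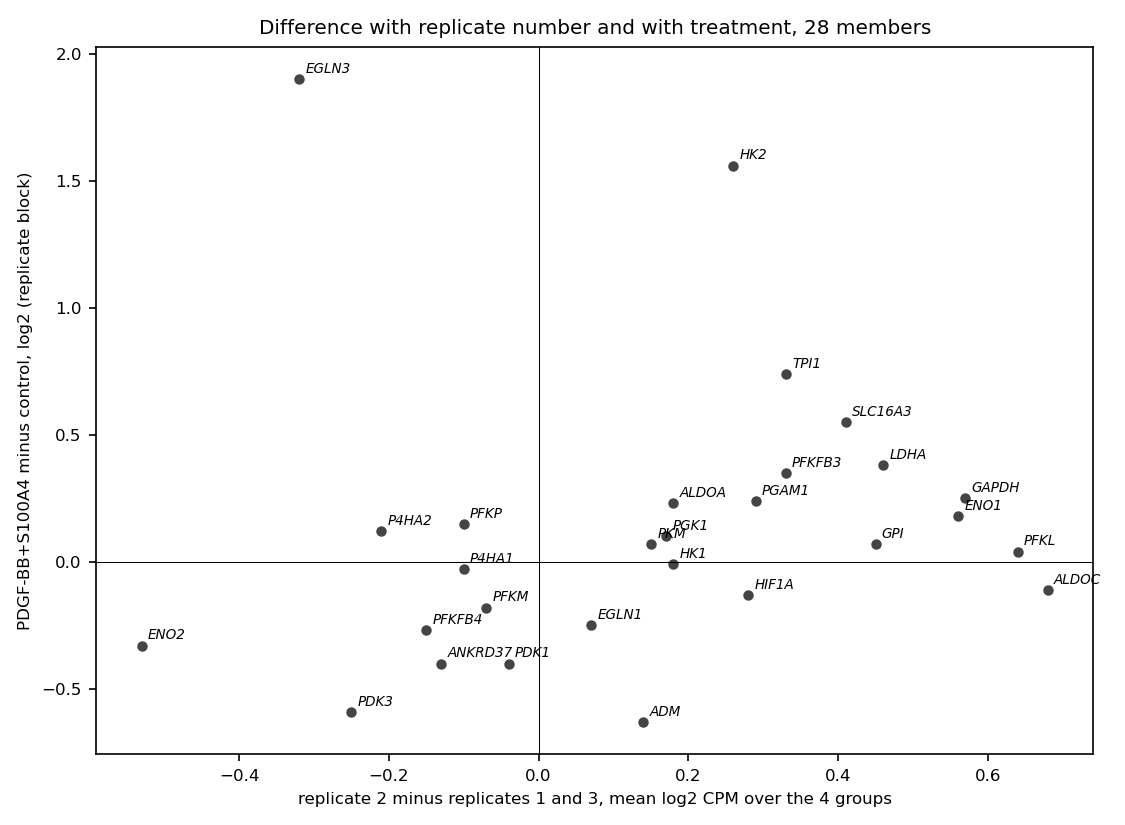
For each of the 28 tested members, the mean log2 CPM of replicate 2 minus that of replicates 1 and 3 (horizontal) against the log2 change with both proteins over control in the blocked fit (vertical). EGLN3 and HK2 stand apart by treatment, while GAPDH, ENO1, PFKL and ALDOC differ more by replicate number than by treatment.

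Genes of the neighbouring pathways were counted from 8 lists, on group means. The shares of all tested genes to set beside these counts are 9.09% higher and 5.62% lower with PDGF-BB, 0.554% and 0.00804% with S100A4, and 13.2% and 8.75% with both proteins; no list was tested against them. Of 23 tested HIF targets outside the 34 genes, 4 rose and 3 fell with PDGF-BB, 1 rose and 0 fell with S100A4, and 6 rose and 4 fell with both proteins. VEGFA, the angiogenic growth factor, was at 185, 179.7 and 213 CPM in the controls, 553, 896 and 495 CPM with PDGF-BB, 250.2, 413 and 283 CPM with S100A4 and 914, 1364 and 855 CPM with both proteins. Its 4 groups did not overlap except between PDGF-BB and both proteins, where replicate 2 of the PDGF-BB group exceeded replicate 3 of the other. VEGFA rose by 1.75 ± 0.28 with PDGF-BB (adjusted p = 0.0024) and by 2.44 ± 0.28 with both (adjusted p = 0.00027), and stood at 0.71 ± 0.27 with S100A4 (adjusted p = 0.61, and 0.0078 with the block). NDRG1, a stress-response gene, rose by 0.36 ± 0.07, 0.84 ± 0.08 and 1.32 ± 0.08 with PDGF-BB, S100A4 and both (adjusted p = 0.0099, 0.00084 and 9.1e-06). MXI1, a MYC antagonist, fell with PDGF-BB from a mean of 8.42 to 3.19 CPM (adjusted p = 0.0014).

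Around pyruvate dehydrogenase, 1 of 9 genes rose and 2 fell with PDGF-BB. PDP2, a phosphatase that reactivates the complex, rose by 0.57 ± 0.09 (adjusted p = 0.0024). PDPR, a regulatory subunit of pyruvate dehydrogenase phosphatase, fell by 0.50 ± 0.08 (adjusted p = 0.0023), and the kinase PDK2 fell by 0.74 ± 0.21 (adjusted p = 0.042). PDHX, a structural component, rose with both proteins (0.32 ± 0.08, adjusted p = 0.013). Of 17 TCA cycle genes, 3 rose and 1 fell with PDGF-BB and 5 rose and 1 fell with both. MDH2, mitochondrial malate dehydrogenase, rose by 0.35 ± 0.05 with PDGF-BB (adjusted p = 0.0023), IDH3B by 0.62 ± 0.11 (adjusted p = 0.0052) and FH, fumarate hydratase, by 0.32 ± 0.07 (adjusted p = 0.01); SDHC fell by 0.19 ± 0.05 (adjusted p = 0.03).

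Transport and storage genes came next. Of 9 tested transport genes, 0 rose and 1 fell with PDGF-BB, and 1 rose and 3 fell with both proteins. SLC16A7 (MCT2), a transporter with high affinity for pyruvate and lactate, fell by 0.54 ± 0.10 with PDGF-BB (adjusted p = 0.0058) and by 0.97 ± 0.10 with both (adjusted p = 0.00017). The glucose transporter genes SLC2A10 and SLC2A12 fell with both proteins, by 0.81 ± 0.21 and 1.24 ± 0.31 (adjusted p = 0.022 and 0.019), and ARRDC4, an arrestin that restrains glucose uptake, rose by 0.61 ± 0.14 (adjusted p = 0.013). Of 12 glycogen genes, 0 rose and 1 fell with PDGF-BB and 0 rose and 2 fell with both. PPP1R3C, which targets a phosphatase to glycogen, fell by 0.62 ± 0.11 with PDGF-BB and by 0.88 ± 0.11 with both (adjusted p = 0.0047 and 0.00047).

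The remaining lists were counted in the same way. Of 14 other glycolysis genes, 1 rose and 1 fell with PDGF-BB and with both proteins alike. ENO3, the muscle enolase, was called lower with PDGF-BB at -0.52 ± 0.13 (adjusted p = 0.025). Of 6 pentose phosphate genes, 1 fell with PDGF-BB, PGD, by 0.22 ± 0.06 (adjusted p = 0.032), and 0 were called with both. Of 7 other oxygen sensing genes, 0 were called with PDGF-BB and 1 with both, EPAS1, the HIF-2 alpha gene, at 0.28 ± 0.08 (adjusted p = 0.031). With PDGF-BB and the block, 3 of the 14 other glycolysis genes were called higher and 5 lower. Of the 6 pentose phosphate genes it was 4 and 1, and of the 7 oxygen sensing genes 2 and 1. Over all genes the block called 24.3% higher and 24.5% lower with PDGF-BB. On group means S100A4 alone called 0 genes of any of the 8 lists except NDRG1. With the block, S100A4 called 5 HIF targets higher and 1 lower, and 2 transport genes higher and 2 lower. It called 2 other glycolysis genes and 2 glycogen genes lower, 1 pyruvate dehydrogenase gene higher, and 1 oxygen sensing gene higher and 1 lower. Pentose phosphate and TCA cycle genes had 0 blocked calls with S100A4. Over all genes the block called 6.46% higher and 4.28% lower with S100A4. The median log2 change with PDGF-BB lay between -0.19, for the glycogen genes, and 0.15, for the pentose phosphate genes, beside -0.02 over all tested genes.

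**Figure D4:**
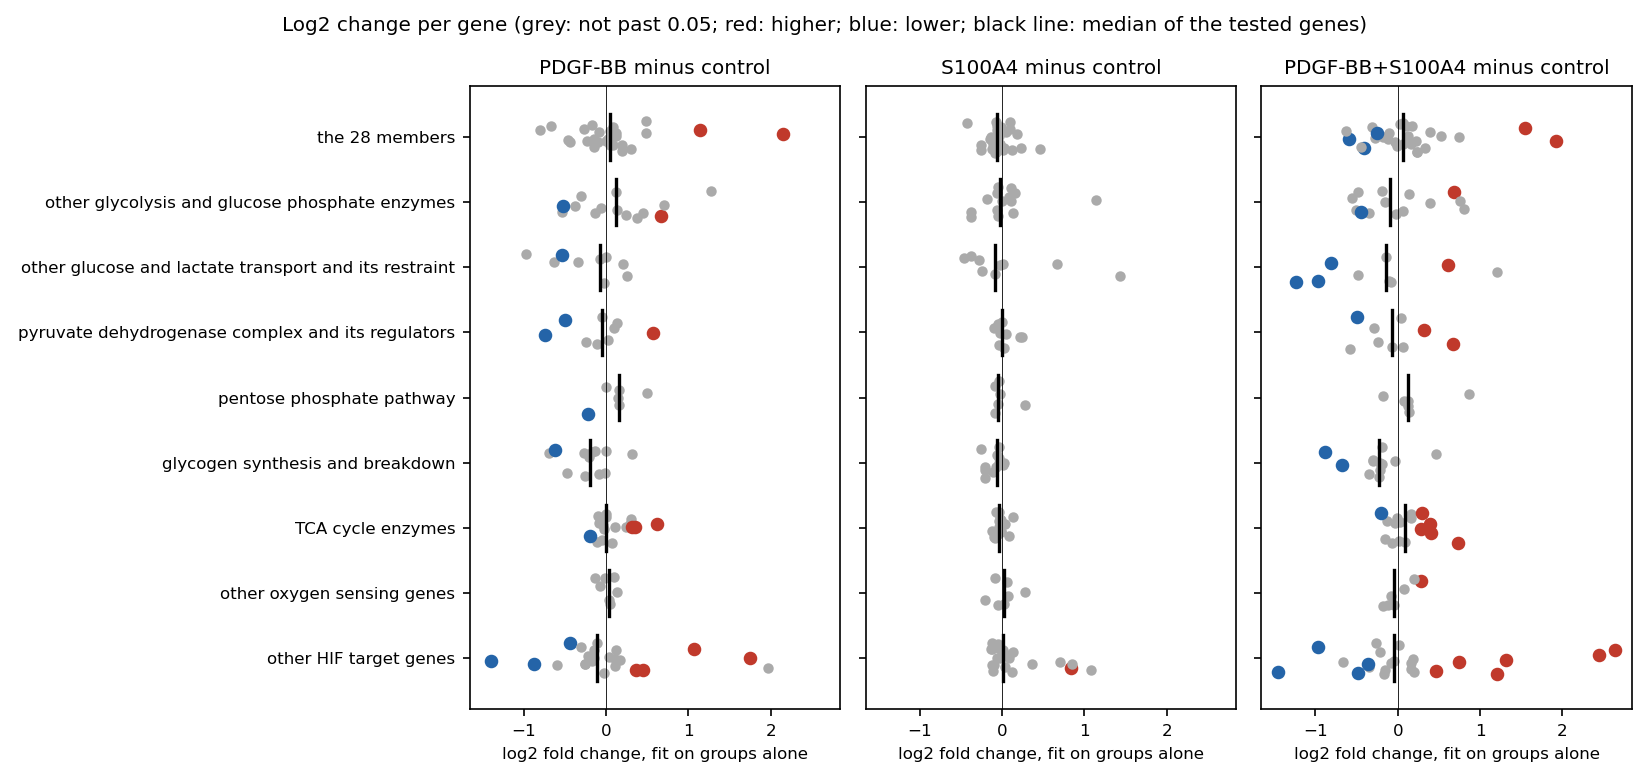
Log2 change against control, in the fit on group means, of each tested gene of the 34-gene set and of the 8 neighbouring lists with PDGF-BB, S100A4 and both proteins; red and blue points passed an adjusted p of 0.05, and vertical bars are list medians. All list medians lie within 0.3 of zero, and the calls of the HIF targets lie on both sides.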

How the data were processed

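Total RNA of 12 samples was made into TruSeq libraries and read on an Illumina HiSeq4000 (100 nt, single end), per the labels' protocols. The deposited table holds whole-number counts per gene. Per the submitters' processing notes, the authors used CASAVA 1.8.2, STAR 2.4 and featureCounts 1.4.6 with the pig build Sscrofa11.1. How strand and multiply mapped reads were counted is not given in the sources used here, and 12 of the 29 members with a row overlap another gene in RefSeq, so their counts may hold reads of a neighbour. Symbols were matched to 14572 of 21153 gene identifiers.

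The members and lists were chosen with earlier results of these data known. Members past the threshold on group means, and the 10 others with the smallest blocked adjusted p, are given in every library. Named genes of the other lists are those with the smallest adjusted p against control, at most 4 a list (some that the counts include are not reported here), and VEGFA.

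From the counts, edgeR 4.0.16 (R 4.3.3) kept 12444 genes (filterByExpr, minimum count 10), scaled them with TMM and fitted the quasi-likelihood test on 4 group means over 12 libraries. Tests were two-sided, adjusted by Benjamini-Hochberg at 0.05. Errors of log2 changes are standard errors and those of CPM means are SD. The replicate block adds the replicate number as a term. The pairing comes from the data of all tested genes. After removal of group means, same-numbered libraries correlated at 0.746 to 0.908 in all 18 pairs and others at -0.676 to 0.136 in 36. Over the members alone the ranges overlapped, at 0.213 to 0.947 for the same number and up to 0.432 for different numbers. The common coefficient of variation was 27.2% without and 5.14% with the block. Alternatives were DESeq2 1.42.0, RLE and upper-quartile scaling, other filters, fewer groups and left-out libraries. No 2 libraries of the same group agreed within sampling noise, and libraries of different groups were not compared in this way. The scripts were tested on simulated data.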

Additional observations from a re-analysis of the deposited data

Results flagged for a closer look

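ALDOA, GAPDH, PGAM1 and ENO1 were lower with S100A4 than in the control of the same number in all 3 pairs without PDGF-BB, and higher in all 3 pairs with it. These genes were picked among the members by this pattern, and how many of all tested genes show it was not counted. Single pair differences were as small as -0.01 (ALDOA, pair 3, without PDGF-BB) and 0.02 (PGAM1, pair 2, with it). The S100A4 effect with PDGF-BB minus that without it was 0.13 for ALDOA, 0.13 for GAPDH, 0.09 for PGAM1 and 0.15 for ENO1 on the log2 scale. The difference was tested as the interaction in edgeR and did not pass: the adjusted p was 1 for each on group means, and 0.52, 0.43, 0.6 and 0.35 in that order with the replicate block. Groups of 3 libraries were not searched for outlying samples.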

How the results depend on the processing

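On group means, the number of members called with PDGF-BB was 5 with DESeq2, 5 with upper-quartile scaling and 4 with the stricter filter; with both proteins against S100A4 it was 2 when only the groups compared entered the fit. Leaving out libraries gave 0 to 4 calls for PDGF-BB, 0 to 11 for both proteins against control and 0 to 11 against S100A4, with 0 in each case without replicate 1 and the most without replicate 2. Calls over all genes moved the same way. In that order they were 131, 502 and 10 without replicate 1, and 2139, 3349 and 2507 without replicate 2.

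With the replicate block the pairing moved every count with a call: 17 members for PDGF-BB, 3 for S100A4 and 20 for both proteins against control, and 20 against S100A4. The block with RLE or upper-quartile scaling, chosen after seeing the data, gave 16 and 15, 3 and 4, 18 and 21, and 20 and 18 in that order. The block without replicate 1, 2 or 3 gave 11, 17 and 10 for PDGF-BB, 1, 3 and 1 for S100A4, 15, 21 and 16 for both proteins against control and 15, 22 and 14 against S100A4. Over all genes these fits called 4372, 5522 and 4446 for PDGF-BB, and 612, 1055 and 608 for S100A4. They called 5312, 6594 and 5437 for both proteins against control and 4009, 5904 and 4241 against S100A4. Without replicate 2 the block gave 5 members against PDGF-BB and 1 for the interaction, beside 1306 and 117 of all genes. Median changes under upper-quartile scaling were -0.01 for PDGF-BB (0.04 as reported), -0.07 for S100A4, -0.00 for both proteins against control and 0.06 against S100A4. The cause of these differences was not tested.

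Over members and settings, 3313 of 3656 values stayed on the same side of the threshold, 304 gained a call, 39 lost one and 0 called values changed sign. For values called in neither fit the direction was not compared. Of 60 blocked calls over the 6 comparisons, 9 were lost under upper-quartile and 3 under RLE scaling, none above 0.15 on the log2 scale. The depth limits TPI1, ANKRD37 and PDK4.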
